A study of Mus musculus with 3 samples.

Results

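Of the 168 windows of 1 Mb on mouse chromosome X that held a listed site, 25 (14.9%) held the start of more than 10 RefSeq protein-coding genes, and these gene-rich windows are described here. They were chosen from gene positions alone, without any read count, although earlier results of these data were known at the time. They held the starts of 439 of the 966 protein-coding genes of the chromosome (45.4%), 11 to 37 in each. All listed single-base sites in them were used and split into sites inside gene windows, meaning a gene body with 5 kb on each side, and sites between genes. Reads came from chromatin bound by LSD1, isolated with an antibody from 3 samples with 1 library each: MidK, mouse embryonic fibroblasts that carried the vector SeVdp(fKOSMaB) and received 30 nM Shield1, at day 20; LowK, the same at day 20 without Shield1; and MEF, the fibroblasts at day 0. Shield1 is a small molecule that keeps proteins tagged with a destabilising domain from being degraded. The comparisons ask how LSD1 reads and their alleles were spread over gene-dense parts of the chromosome before and after reprogramming, at both settings of the ligand. The labels name neither the strain that carries the variant base nor whether cells were pooled. DNA reads gave no check of the labelled cell type.

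LSD1 (Kdm1a) removes methyl groups from lysine 4 of histone H3 and works in repressor complexes with CoREST and histone deacetylases. It is found at enhancers and promoters, and it is used as a target to alter reprogramming. Mammalian genes are spread unevenly, and gene-dense segments hold many housekeeping genes whose promoters lie in CpG islands, stretches of DNA with many CG pairs. Chromosome X also holds gene-dense segments of another kind, with families of near-identical genes active in the testis or placenta.

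Both kinds were present. The 25 windows included 5 runs of 3 adjacent windows. The first, chrX:7000001-10000000, ran from Akap4, a sperm tail anchoring protein gene, past Gata1, the erythroid transcription factor gene, to H2al3. The second, chrX:36000001-39000000, ran from Il13ra1 to 6030498E09Rik and held the Rhox cluster of reproductive homeobox genes. The third, chrX:73000001-76000000, ran from Pnma5 over Hcfc1 and Irak1 to Pls3. The fourth, chrX:100000001-103000000, ran from Awat2 to Dmrtc1a, and the fifth, chrX:134000001-137000000, ran from Cstf2 to Zcchc18 over the Armcx, Bex and Tceal genes. The other 10 windows stood alone. They were chrX:20000001-21000000 (Chst7 to Uxt), chrX:48000001-49000000 (Apln to Fsip2l), chrX:53000001-54000000 (Plac1 to Xlr), chrX:56000001-57000000 (Gm773 to Adgrg4) and chrX:71000001-72000000 (Mamld1 to Cnga2). Further along lay chrX:106000001-107000000 (Cox7b to Lpar4), chrX:139000001-140000000 (Serpina7 to Rbm41), chrX:152000001-153000000 (Hsd17b10 to Gpr143), chrX:154000001-155000000 (Samt1 to Magea8) and chrX:164000001-165000000 (Siah1b to Fancb). Of the 439 genes, 114 had the name of a multi-copy family or a Gm number, and in 4 windows these made up 50% or more of the genes. Reads of such copies cannot be assigned to 1 copy with certainty.

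The starts of the genes in these windows included CpG-rich and CpG-poor ones, and LowK differed more from both other libraries there than further away. The 250 bases before the start of 7 genes are printed, from RefSeq on build GRCm38.p6, 5′ to 3′ on the strand of the gene, with every CG pair in capitals. 4933407K13Rik, Taf1 and Il13ra1 are shown because they held many reads among the genes that differed between libraries. Siah1b and Ube2a (CpG-rich) and Taf7l and Rab9b (not CpG-rich) are shown because they held the most LowK reads within 1 kb of the start in their class, a choice made after the reads were seen. The class was set on the 300-base table entry, which also holds the bases after the start. For Rab9b the ratio of observed to expected CG pairs was 0.557 over the entry, under the limit of 0.6, but 0.638 over the 250 bases printed, which alone would pass.
4933407K13Rik, chrX:75764700-75764949, minus strand: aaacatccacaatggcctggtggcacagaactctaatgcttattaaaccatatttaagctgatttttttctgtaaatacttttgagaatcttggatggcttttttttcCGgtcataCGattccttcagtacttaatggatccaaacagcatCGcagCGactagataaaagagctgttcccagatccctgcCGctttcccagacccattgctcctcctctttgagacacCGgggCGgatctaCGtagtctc
Taf1, chrX:101532485-101532734, plus strand: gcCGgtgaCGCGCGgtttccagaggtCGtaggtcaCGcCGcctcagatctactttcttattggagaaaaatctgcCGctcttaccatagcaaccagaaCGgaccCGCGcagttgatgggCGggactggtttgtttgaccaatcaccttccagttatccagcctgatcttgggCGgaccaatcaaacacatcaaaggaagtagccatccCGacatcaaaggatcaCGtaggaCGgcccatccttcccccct
Il13ra1, chrX:36111858-36112107, plus strand: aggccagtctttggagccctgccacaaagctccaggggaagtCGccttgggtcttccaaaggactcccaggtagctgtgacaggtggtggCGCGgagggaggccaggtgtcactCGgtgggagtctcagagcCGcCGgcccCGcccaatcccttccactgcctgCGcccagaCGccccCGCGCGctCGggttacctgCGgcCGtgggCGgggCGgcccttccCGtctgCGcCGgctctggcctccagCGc
Siah1b, chrX:164076494-164076743, minus strand: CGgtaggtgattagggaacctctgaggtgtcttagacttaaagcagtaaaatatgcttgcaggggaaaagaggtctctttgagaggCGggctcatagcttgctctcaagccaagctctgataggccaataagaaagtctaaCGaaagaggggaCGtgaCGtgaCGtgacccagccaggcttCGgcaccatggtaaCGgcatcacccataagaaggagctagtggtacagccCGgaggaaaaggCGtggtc
Ube2a, chrX:36874045-36874294, plus strand: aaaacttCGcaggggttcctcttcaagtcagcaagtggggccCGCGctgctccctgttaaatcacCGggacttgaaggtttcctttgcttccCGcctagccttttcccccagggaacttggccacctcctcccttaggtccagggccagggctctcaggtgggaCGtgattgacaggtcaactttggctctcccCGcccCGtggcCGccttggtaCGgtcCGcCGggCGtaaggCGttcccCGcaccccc
Taf7l, chrX:134476491-134476740, minus strand: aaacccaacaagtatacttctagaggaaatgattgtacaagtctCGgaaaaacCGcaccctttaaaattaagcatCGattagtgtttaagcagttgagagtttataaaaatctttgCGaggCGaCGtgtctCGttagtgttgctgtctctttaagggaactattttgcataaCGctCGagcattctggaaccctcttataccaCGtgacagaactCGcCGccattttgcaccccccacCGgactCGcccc
Rab9b, chrX:136868557-136868806, minus strand: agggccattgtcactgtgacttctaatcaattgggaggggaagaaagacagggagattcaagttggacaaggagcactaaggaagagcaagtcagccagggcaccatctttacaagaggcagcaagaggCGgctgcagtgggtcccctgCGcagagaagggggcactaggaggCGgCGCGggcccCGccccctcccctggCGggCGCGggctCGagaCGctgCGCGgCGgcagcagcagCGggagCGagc
Taf1, which encodes a subunit of the general transcription factor TFIID, had 16 CG pairs in these bases and Il13ra1, an interleukin receptor subunit gene, had 21. The noncoding gene 4933407K13Rik had 8. Siah1b, a ubiquitin ligase gene, had 0 reads within 1 kb of its start in MidK, 46 in LowK and 43 in MEF. Ube2a, which encodes a ubiquitin-conjugating enzyme, had 25 reads there in MidK, 46 in LowK and 32 in MEF. Taf7l, a germline TFIID subunit gene, had 33 in MidK, 59 in LowK and 49 in MEF, and Rab9b, a small GTPase gene, had 12, 58 and 28. The LowK library held the most reads at these 4 starts, which the choice of genes favours, although the MEF library was the deepest.

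The lists held 203350 reads at 119257 sites in MidK, 295254 at 186844 in LowK and 883097 at 411952 in MEF. In the gene-rich windows there were 33054 reads in MidK, 61623 in LowK and 159364 in MEF, at 1.72, 1.65 and 2.23 reads per site. The share of these sites with G or C as the B6 base was 50.3% in MidK, 51.6% in LowK and 51.4% in MEF, against 48.4%, 48.9% and 49.5% in the other windows. Each library listed mostly its own sites: 766 sites of the gene-rich windows were listed in all 3. With no input library in use, read shares are coverage, not enrichment. All intervals are exact 95% intervals for counting error. They are too narrow, because 1 read that covers several listed sites is counted at each, and no difference has a replicate check. The comparisons also share libraries, so they are not independent of each other.

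The gene-rich windows took the largest share of the reads in LowK and the smallest in MidK. They held 16.3% of the chromosome's reads in MidK, 20.9% in LowK and 18.0% in MEF. The Clopper-Pearson intervals were 16.1% to 16.4% in MidK, 20.7% to 21.0% in LowK and 18.0% to 18.1% in MEF. To compare windows, each ratio of read counts was divided by that of the median window tested, 162 windows for LowK over MEF, 164 for MidK over MEF and 161 for MidK over LowK. On this scale the ratio of the set was 1.19 (1.18 to 1.20) for LowK over MEF. It was 0.898 (0.888 to 0.909) for MidK over MEF and 0.736 (0.726 to 0.746) for MidK over LowK. At sites listed in all 3 libraries the ratios were 1.01, 1.02 and 0.98, so these differences of the set were not seen at shared sites. There the median window came from only 17, 17 and 10 windows, of which 7, 6 and 3 were gene-rich. The set was thus compared in part with itself, so these ratios cannot show whether the differences were absent. In LowK over MEF, 1 of the 7 windows was called higher there.

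Most windows went the same way as the set. The ratio of LowK over MEF was over 1 in 22 of 25 gene-rich windows, against 50% of all windows, with the whole interval over 1 in 20 (35.2% of all windows). That of MidK over MEF was under 1 in 20 of 25 (50% of all windows), with the whole interval under 1 in 19 (42.1%). That of MidK over LowK was under 1 in 23 of 25 (49.7%), with the interval under 1 in 21 (40.4%). Cox7b to Lpar4 was the median window itself in this last comparison.

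The median ratio over windows rose with the gene number of the class for LowK over MEF and fell for MidK over LowK, although single windows did not follow this order. For LowK over MEF it was 0.968 in the 15 windows without a protein-coding start, 0.978 in the 122 with 1 to 10, 1.13 in the 18 with 11 to 20 and 1.29 in the 7 with over 20. For MidK over LowK the medians were 1.09, 1.03, 0.726 and 0.633, in 15, 121, 18 and 7 windows. For MidK over MEF they were 1.06, 1.02, 0.846 and 0.834, so the windows with over 20 genes were close to those with 11 to 20. The choice of threshold did not fall at a step: the 6 windows with 11 genes had a median MidK over LowK of 0.750, and the 5 windows with 10 genes, just outside, had 0.728. For LowK over MEF these medians were 1.09 and 1.19.

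**Figure D1:**
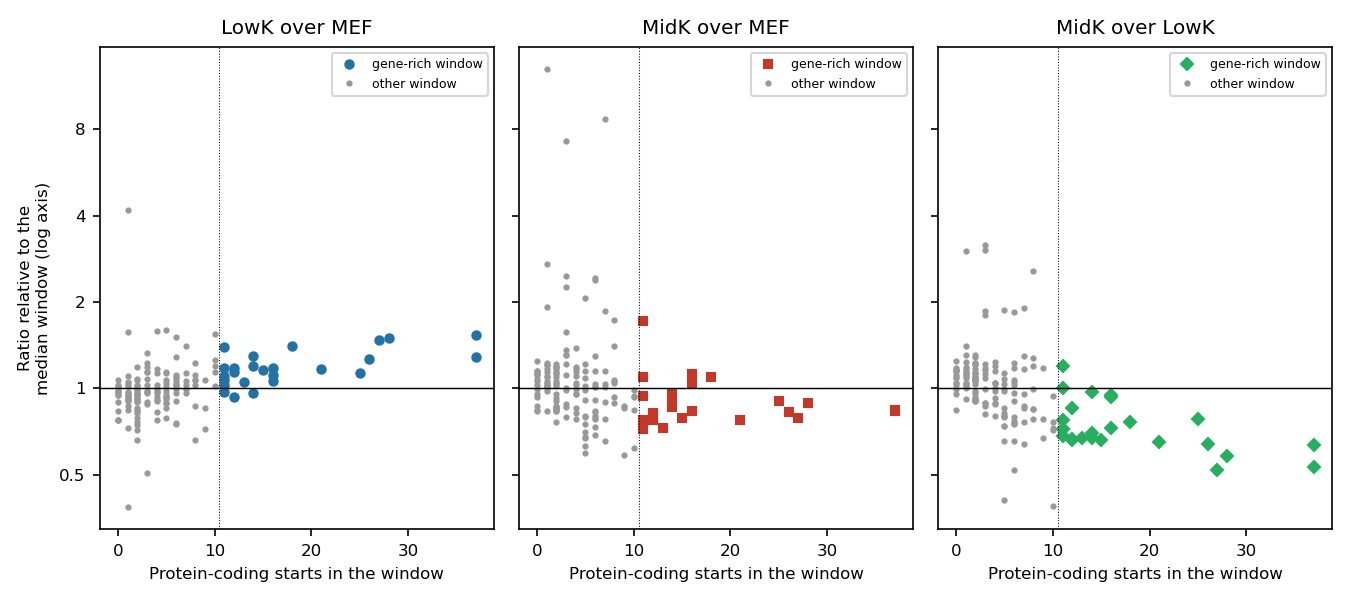
Each point is a 1 Mb window of chromosome X, placed by its number of protein-coding starts and by the ratio of reads between 2 libraries relative to the median window (log axis); coloured points are the 25 gene-rich windows and the dotted line marks the threshold of more than 10 genes. The windows with over 20 genes all lie above 1 for LowK over MEF and below 1 for MidK over LowK. Windows with fewer genes lie on both sides of 1, some of them further from it than any gene-rich window.

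A window was called different at 1.5-fold or more, with an interval apart from 1 and at least 100 reads in 1 of both libraries. For MidK over LowK, 9 of the 25 were called lower, against 9.32% of all windows, and 0 higher (5.59%). Akap4 to Gata1 was the lowest of the 25, with 67.8 reads per 10000 reads of the chromosome in MidK, 123 in LowK and 85.9 in MEF, and a MidK over LowK ratio of 0.520 (0.489 to 0.554). It holds Gata1, Foxp3, Hdac6 and the neighbours Plp2, Magix and Wdr45. Pnma5 to Hcfc1 had 59.4 in MidK, 106 in LowK and 71.0 in MEF, a ratio of 0.529 (0.495 to 0.566). Irak1 to Gab3, with Flna and G6pdx, had 54.4 in MidK, 88.7 in LowK and 61.1 in MEF, a ratio of 0.579 (0.539 to 0.622). In each of these windows MidK was the lowest library and LowK the highest. The other 6 called windows were Glod5 to Fthl17d, Il13ra1 to Septin6, Sowahd to Rhox9, Awat2 to Tex11, Rtl5 to Dmrtc1a and Cstf2 to Zmat1, with ratios of 0.633 to 0.664. With library totals in place of the median window, 3 windows were called lower, and with 1 site per 300 bp 5 were.

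For LowK over MEF 1 of 25 was called higher, Pnma5 to Hcfc1 at 1.54 (1.47 to 1.60), against 4.32% of all windows, and 0 lower (2.47%). Irak1 to Gab3 at 1.495 (1.43 to 1.57) and Akap4 to Gata1 at 1.47 (1.42 to 1.53) stood just under the limit. With library totals Pnma5 to Hcfc1 stood at 1.49 and with 1 site per 300 bp at 1.40, so it was no longer called. The lowest LowK over MEF ratio was that of Serpina7 to Rbm41, 0.933 (0.888 to 0.981), with 62.2 reads per 10000 in MidK, 68.9 in LowK and 75.9 in MEF, and the interval of MidK over MEF was also under 1.

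For MidK over MEF 1 of 25 was called higher, Dkc1 to Pls3 at 1.71 (1.63 to 1.79), against 8.54% of all windows, and 0 lower (3.05%). This window held 121 reads per 10000 in MidK, 95.4 in LowK and 70.2 in MEF. In MidK, 10 sites with over 20 reads between chrX:75670901 and chrX:75672002 held 751 of its 2453 reads, 95.5% of them with the variant base. In LowK 1 such site there held 70 reads, and in MEF 4 held 231. Without sites of over 20 reads the ratio was 1.24 and no window was called. With a reliability of at least 20 the direction of the calls turned, with 0 windows higher and 1 lower. The other windows with a MidK over MEF ratio over 1 were Chst7 to Uxt at 1.13, Slc7a3 to Nhsl2 at 1.10, Cox7b to Lpar4 at 1.10 and Samt1 to Magea8 at 1.04, the last with an interval of 0.977 to 1.10.

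**Figure D2:**
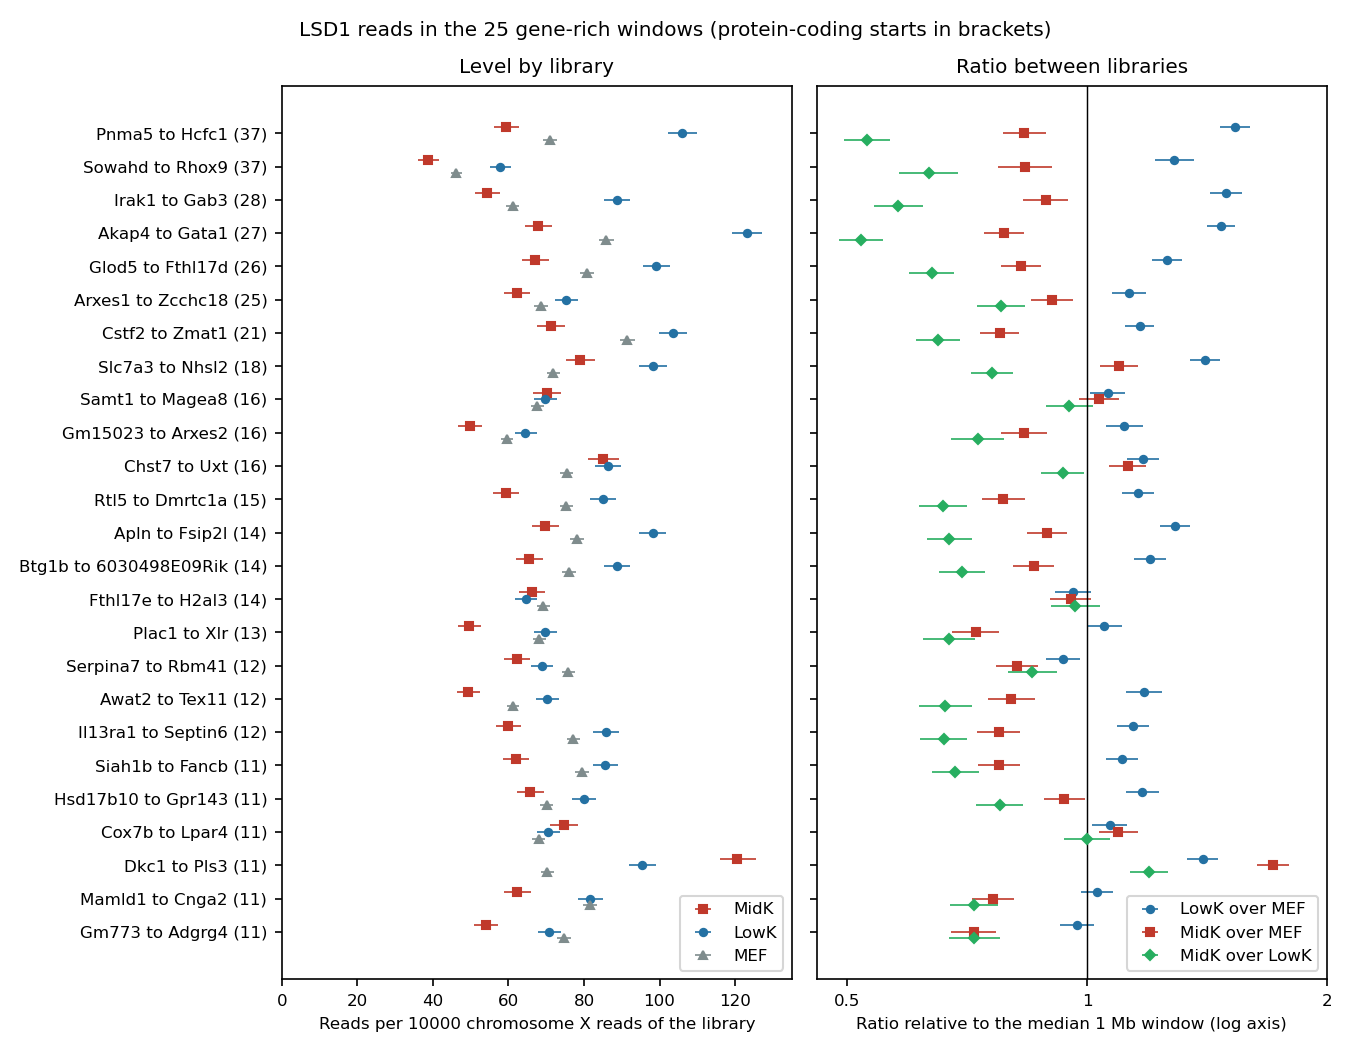
Left, reads per 10000 chromosome X reads in MidK (squares), LowK (circles) and MEF (triangles) for each of the 25 gene-rich windows, ordered by the number of protein-coding starts, with exact 95% intervals for counting error; right, the 3 ratios relative to the median 1 Mb window on a log axis. LowK is the highest library and MidK the lowest in most windows, with the widest gaps in Pnma5 to Hcfc1 and Akap4 to Gata1, while MidK is the highest in Dkc1 to Pls3, Cox7b to Lpar4 and Samt1 to Magea8.

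Windows with many multi-copy genes did not behave alike for MidK over LowK. The 4 windows with at least 50% such genes had a median MidK over LowK of 0.795, and the other 21 had 0.697; for LowK over MEF both medians were 1.16. Samt1 to Magea8, where all 16 genes had such a name, had 70.1 reads per 10000 in MidK, 69.7 in LowK and 67.5 in MEF. Fthl17e to H2al3 had 66.1, 64.6 and 69.2. The levels in these windows lay close together, with MidK over LowK at 0.9503 and 0.967. Sowahd to Rhox9, with 30 of 37 such genes, had 38.7 in MidK, 57.7 in LowK and 46.1 in MEF, and Glod5 to Fthl17d, with 61.5% such genes, had 67.0, 99.1 and 80.8. Their ratios of 0.633 and 0.639 lay below the median of the other 21 windows.

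Within the gene-rich windows, MidK reads lay less densely inside genes than between them, and LowK and MEF reads did not. Gene windows covered 61.9% of the length. MidK had 1.20 reads per kb inside and 1.53 between, a ratio of 0.785 (0.768 to 0.802). LowK had 2.53 and 2.36, a ratio of 1.08 (1.06 to 1.09), and MEF had 6.50 and 6.17, a ratio of 1.05 (1.04 to 1.06). Listed sites alone gave ratios of 0.850 in MidK, 1.05 in LowK and 1.06 in MEF, and their part in the read ratios was not tested. Without Dkc1 to Pls3 the MidK ratio was 0.832. In the other windows of the chromosome the ratios were 0.942, 1.11 and 1.19. MidK thus stood lowest there too. The values of the other windows keep sites with over 20 reads, 111 of them in MidK.

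The same order was seen window by window. The ratio was lower in MidK than in MEF in 22 of 25 gene-rich windows, against 80.4% of all windows, and lower in MidK than in LowK in 22 of 25, against 74.8%. Both counts are close to those of the whole chromosome. Reads were denser inside genes in 4 of 25 windows in MidK (23.1% of all windows), in 13 in LowK (42.7%) and in 17 in MEF (58%). Relative to the median window, MidK over MEF was 0.798 (0.786 to 0.811) inside genes and 1.07 (1.05 to 1.09) between them, and MidK over LowK was 0.649 (0.638 to 0.660) and 0.889 (0.870 to 0.907). LowK over MEF was 1.20 (1.18 to 1.21) inside and 1.17 (1.16 to 1.19) between. In the gene-rich windows the lower share of MidK over MEF was therefore found inside genes, and the higher share of LowK over MEF in both places. The split of MidK was not particular to these windows. In the other windows MidK over MEF was 0.868 inside and 1.10 between, and MidK over LowK was 0.894 and 1.05. LowK over MEF was 0.946 and 1.02 there.

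**Figure D3:**
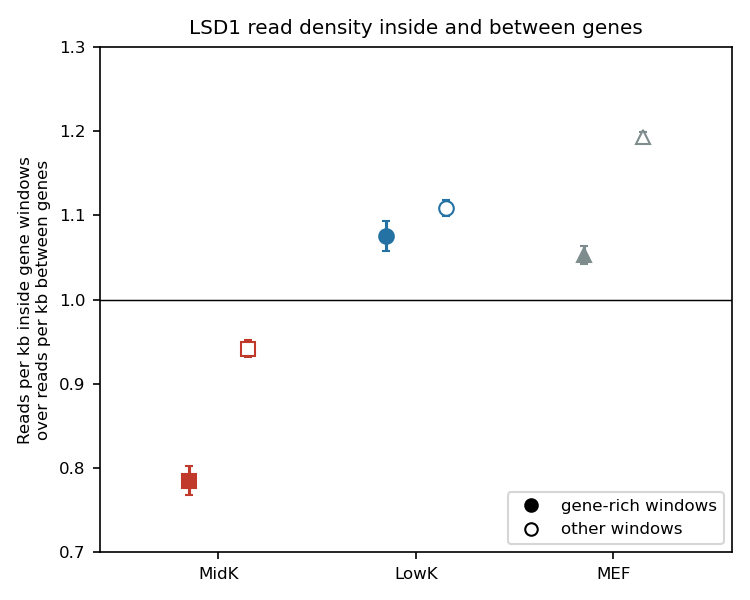
Reads per kb inside gene windows divided by reads per kb between genes, for MidK, LowK and MEF, in the 25 gene-rich windows (filled) and in the other windows (open), with exact 95% intervals for counting error. In gene-rich windows MidK lies at 0.785, below 1, and LowK and MEF at 1.08 and 1.05, above it.

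Around annotated starts LowK differed more from both other libraries than further out, while MidK over MEF was closer to 1 over all starts. Of the 439 genes, 386 had an entry in the RefSeq promoter table, which gives the strand. These results were added after the data had been seen. Reads within 1 kb of a start over those 1 to 10 kb away, per kb, gave a density ratio of 1.34 in MidK (1.26 to 1.43), 2.06 in LowK (1.98 to 2.13) and 1.18 in MEF (1.15 to 1.21). Listed sites alone gave 1.09 in MidK, 1.55 in LowK and 1.06 in MEF. A start had a read within 1 kb at 60.1% of the 386 genes in MidK, 85.5% in LowK and 90.7% in MEF, with medians of 1, 8 and 12.5 reads.

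Relative to the median window, LowK over MEF within 1 kb of the starts was 2.13 (2.04 to 2.22), against 1.22 (1.20 to 1.245) at 1 to 10 kb. MidK over MEF was 0.909 (0.853 to 0.968) within 1 kb and 0.800 (0.780 to 0.821) further out. MidK over LowK was 0.417 (0.390 to 0.445) and 0.638 (0.620 to 0.656). The highest bin for LowK over MEF was the first kb downstream of the start, at 2.40 (2.27 to 2.54). The lowest for MidK over LowK was the kb upstream of it, at 0.364 (0.329 to 0.402).

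The rise of LowK at starts was also found outside the gene-rich windows. At 431 starts in the other windows LowK over MEF within 1 kb was 2.47 (2.38 to 2.57), MidK over MEF was 1.87 (1.78 to 1.96) and MidK over LowK was 0.735 (0.700 to 0.772). Sites with over 20 reads entered these values. Without them they were 2.39, 1.32 and 0.542, while those of the gene-rich starts were 2.13, 0.912 and 0.418. At 1 to 10 kb from these starts LowK over MEF was 0.997 (0.978 to 1.02). At 1 to 10 kb LowK over MEF was thus lower there than around gene-rich starts, with intervals apart, and within 1 kb the pooled MidK over MEF was higher there. Of the 2503 MidK reads within 1 kb of these starts, 862 lay at that of Asmt. Among windows with at least 20 such reads in 1 library, the median MidK over MEF at starts was 0.872 in the other windows and 0.831 in the gene-rich ones. With 1 site per 300 bp LowK over MEF within 1 kb was 1.81 in both sets, so the 2.13 and 2.47 did not differ under this choice.

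By window, LowK over MEF within 1 kb of starts was over 1 in 25 of 25 gene-rich windows, against 92.4% of the windows with at least 20 such reads in 1 library, and MidK over LowK was under 1 in 25 of 25, against 94%. MidK over MEF was under 1 in 14 of 25, against 55.4%. These counts are close to the background. Slc7a3 to Nhsl2 had the highest LowK over MEF at starts, 3.005 (2.33 to 3.87), from 25 reads in MidK, 125 in LowK and 128 in MEF. Il13ra1 to Septin6 had 114, 218 and 230 reads, and the highest MidK over MEF at starts, 2.15 (1.70 to 2.70). In Samt1 to Magea8 there were 2 reads at starts in MidK, 44 in LowK and 102 in MEF. Cox7b to Lpar4 had the lowest LowK over MEF, 1.14 (0.761 to 1.66).

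**Figure D4:**
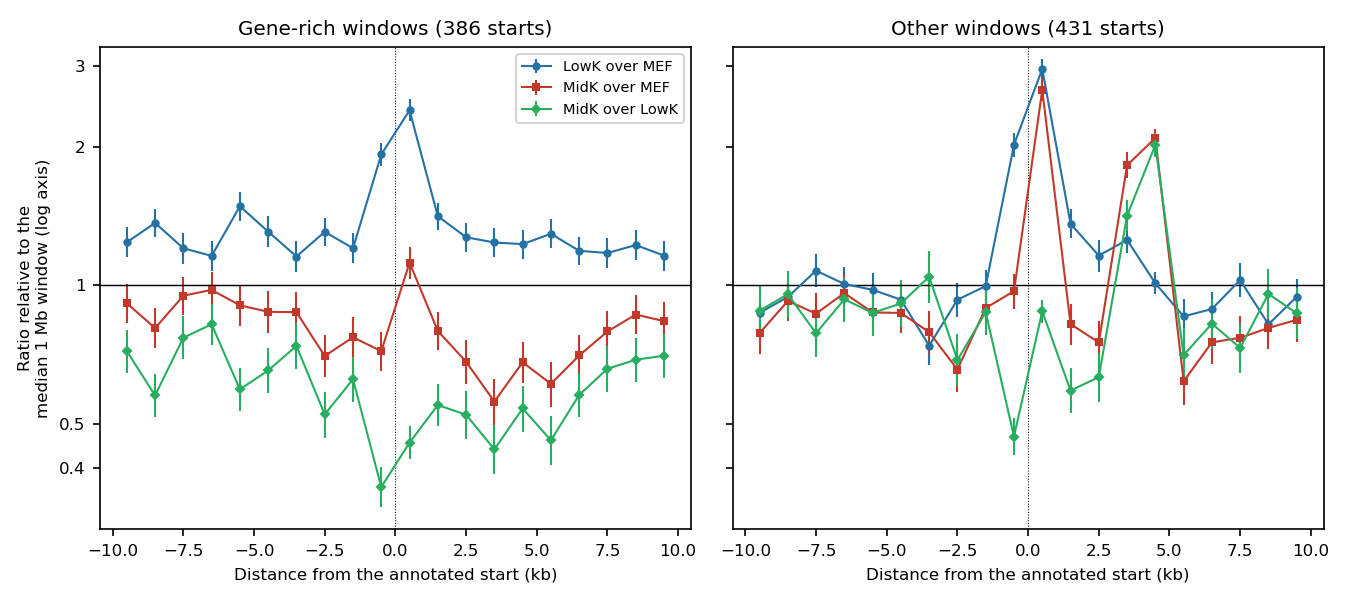
Ratio of reads relative to the median 1 Mb window (log axis) in bins of 1 kb around annotated starts, negative distances being upstream, for 386 starts in the gene-rich windows (left) and 431 in the other windows (right); bars are exact 95% intervals for counting error. In gene-rich windows LowK over MEF peaks at 2.40 in the first kb downstream, while MidK over LowK is lowest at 0.364 in the kb upstream; in the other windows MidK peaks also hold sites with over 20 reads.

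Starts with a CpG-rich promoter were called so when the 300-base table entry had at least 50% G and C and a ratio of observed to expected CG pairs of at least 0.6. Of the 386 gene-rich starts 113 (29.3%) met this, against 26.2% of 431 others. Among genes without a multi-copy name it was 38.2%, and among those with one 3.06%. At CpG-rich starts LowK over MEF within 1 kb was 2.73 (2.55 to 2.92), MidK over MEF 1.49 (1.36 to 1.63) and MidK over LowK 0.533 (0.485 to 0.585). At the 273 CpG-poor starts these were 1.85 (1.76 to 1.95), 0.642 (0.587 to 0.701) and 0.338 (0.308 to 0.370). MidK thus stood above MEF at CpG-rich starts and below it at CpG-poor ones. With 1 site per 300 bp the values of MidK over MEF were 1.27 and 0.670. Leaving out multi-copy genes, they were 1.497 and 0.678. The letters GGGCGG, the core of the GC box, a motif of Sp1-family factors that itself contains a CG pair, were found on either strand of 43.5% of the gene-rich entries, 33.4% of the others and 38.2% of all. In the bases printed above, Il13ra1 had 21 CG pairs at 70.8% G and C, and 4933407K13Rik had 8 at 44%. Their ratios of observed to expected CG pairs were close, at 0.671 and 0.679.

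Single genes were compared over the gene body with 5 kb on each side. Of the protein-coding and long noncoding genes, 525 started in the gene-rich windows, and the windows of 353 of them overlapped another gene window, so neighbours share reads. A gene was called at 2-fold or more, with Poisson intervals that did not overlap and at least 30 reads in 1 of both libraries. Ratios of genes are relative to the median gene of the chromosome. Against library totals that median lay at a log2 of 0.10 for LowK over MEF, -0.44 for MidK over MEF and -0.56 for MidK over LowK, so a MidK gene at a ratio of 1 had a lower share of its library.

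For LowK over MEF, 48 of 495 genes tested were called higher, against 7.23% of all genes, and 22 lower (6.3%), with a median log2 ratio of 0.19 against 0 over all genes. Of the 22 lower genes 18 had a multi-copy name. Of the 343 genes without such a name 32 were higher and 4 lower. With 1 site per 300 bp, 20 of the 70 calls were kept, all of them higher. For MidK over MEF, 47 of 495 were higher (9.45% of all genes) and 55 lower (9.82%), with a median log2 ratio of -0.04. Of these 102 calls 20 were kept with 1 site per 300 bp, 15 higher and 5 lower. For MidK over LowK, 28 of 425 were higher (8.73%) and 67 lower (11.9%), median -0.21, and 13 of the 95 calls were kept, 2 higher and 11 lower. With library totals the counts were 65 higher and 18 lower for LowK over MEF, 23 and 118 for MidK over MEF, and 8 and 166 for MidK over LowK.

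The highest gene for LowK over MEF was Plxnb3 (chrX:73756556-73772510), which encodes a semaphorin receptor, with 25 reads in MidK, 157 in LowK and 100 in MEF. Its LowK over MEF ratio was 4.39 (3.40 to 5.70), and its MidK over LowK ratio 0.34 (0.21 to 0.52). Its neighbour Ssr4, a subunit gene of the translocon-associated complex of the endoplasmic reticulum, had 8 reads in MidK, 78 in LowK and 85 in MEF. The LowK over MEF ratio of Ssr4 was 2.57 and the MidK over LowK ratio 0.22. Cxcr3, a chemokine receptor gene of T cells (chrX:101731535-101734147), had 12, 66 and 49 reads and a LowK over MEF ratio of 3.77 (2.57 to 5.57). All 3 were called again for LowK over MEF with 1 site per 300 bp. Gm38625 and Gm5640, at 3.84 and 3.43, were not.

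A stretch in the window from Akap4 to Gata1 held several such genes side by side, with overlapping gene windows. Magix, at chrX:7673166-7681251, had 24 reads in MidK, 136 in LowK and 111 in MEF, a LowK over MEF ratio of 3.43 (2.65 to 4.45). Plp2, which encodes a membrane protein of the endoplasmic reticulum, stood at 2.32, Wdr45, an autophagy gene, at 2.73 and Tfe3, which encodes a transcription factor of lysosome and stem cell programmes, at 2.17. MidK over LowK was called lower in each of these genes, at ratios of 0.27 to 0.38, and MidK over MEF was called in none of them. Further along the same window lay Pim2, a kinase gene, with 15, 82 and 83 reads, and Pcsk1n, a neuroendocrine peptide gene, with 22, 129 and 118. Eras, which encodes a Ras protein of embryonic stem cells, had 20 reads in MidK, 133 in LowK and 110 in MEF, and LowK over MEF was 3.38 (2.61 to 4.40). Pcsk1n and Eras lie next to each other and share reads.

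Some genes were higher in both day 20 libraries than in MEF. Taf9b, a TFIID subunit gene at chrX:106206874-106221158, had 70 reads in MidK, 103 in LowK and 88 in MEF. The MidK over MEF ratio of Taf9b was 4.67 (3.36 to 6.47) and its LowK over MEF ratio 3.28 (2.44 to 4.40). Irak1, a kinase gene of interleukin-1 and Toll-like receptor signalling, had 67, 80 and 102 reads, a MidK over MEF ratio of 3.86 (2.79 to 5.30) and a LowK over MEF ratio of 2.19 (1.62 to 2.97). Both ratios of both genes were called again with 1 site per 300 bp. H2bfm, a histone H2B gene, had 63, 67 and 75 reads, a MidK over MEF ratio of 4.93 and a LowK over MEF ratio of 2.50. Trap1a, a tumour antigen gene, had 55, 54 and 72 reads, and ratios of 4.49 and 2.10. For Trap1a no call, and for H2bfm only the LowK over MEF call, was made again with 1 site per 300 bp. Rhox2h and Gm38625, at MidK over MEF ratios of 5.87 and 5.60, belong to the uncertain copies. Rhox2b, of the same family as Rhox2h, was among the lowest, with 0 reads in MidK, 1 in LowK and 47 in MEF. Read assignment among these copies is uncertain.

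Other genes were lower in MidK, and Trex2, Smc1a, Otud6a and Dmrtc1a were called so over both other libraries. Trex2, an exonuclease gene at chrX:73433705-73435343, had 1 read in MidK, 55 in LowK and 99 in MEF, with a MidK over MEF ratio of 0.06 (0.00 to 0.34) and a MidK over LowK ratio of 0.04 (0.00 to 0.23). Smc1a, a cohesin subunit gene, had 16, 118 and 402 reads, and ratios of 0.23 (0.13 to 0.38) and 0.29 (0.16 to 0.49). Within 1 kb of its start Smc1a had 0 reads in MidK, 24 in LowK and 6 in MEF. Otud6a, a deubiquitinase gene, had 2, 51 and 79 reads, and Dmrtc1a had 3, 67 and 134. G6pdx, which encodes the first enzyme of the pentose phosphate pathway, had 18, 108 and 160 reads and a MidK over LowK ratio of 0.36 (0.20 to 0.59), but at 0.66 (0.38 to 1.08) it was not called over MEF. Within 1 kb of the G6pdx start there were 0 reads in MidK, 22 in LowK and 7 in MEF. Of these genes, Smc1a kept both calls with 1 site per 300 bp, Trex2 that over MEF and G6pdx that over LowK. The copies Rtl8c and Rtl8b, with 1 MidK read each, had MidK over LowK ratios of 0.03 and 0.06 and are uncertain.

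The higher calls of MidK over LowK were fewer. Taf1 had 188 reads in MidK, 185 in LowK and 473 in MEF, with a MidK over LowK ratio of 2.17 (1.76 to 2.68) and a MidK over MEF ratio of 2.33 (1.96 to 2.77). Nkrf, which encodes a repressor of NF-kB targets, had 46, 38 and 154 reads and a MidK over LowK ratio of 2.59 (1.65 to 4.09). Usp11, a deubiquitinase gene, had 77, 75 and 201 reads, and Vbp1, a prefoldin subunit gene, had 58, 61 and 168. Their MidK over LowK ratios were 2.19 and 2.03. Il13ra1 had 131, 139 and 444 reads and stood at 2.01. None of these 5 MidK over LowK calls was made again with 1 site per 300 bp. The ratios are relative to the median gene, which lay at 0.679 against library totals, so against library totals each ratio is lower. With library totals 8 genes were called higher for MidK over LowK, against 28 relative to the median gene. The window from Il13ra1 to Septin6 was itself called lower for MidK over LowK, at 0.661 relative to the median window. 1700013H16Rik, Gm33784, Rhox3h and Gm39499 had the next highest ratios after Rhox2h, 4.12 to 4.74, and of these Gm33784 was called again.

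Genes were also counted by function. Members of 1 list or of different lists can be neighbours that share reads, so these are not counts of separate loci. Plp2, Wdr45, Tfe3, Pim2, Pcsk1n, Eras and Foxp3, from different lists, all lie in the window from Akap4 to Gata1. Plxnb3 and Ssr4 lie in that from Pnma5 to Hcfc1. Of 15 pluripotency and germline genes, 6 were higher in LowK over MEF and 0 lower, with a median log2 ratio of 0.67, against 0.19 over all genes of the gene-rich windows. The higher share was 40% of the list, against 7.23% of all genes. The list was drawn up with results of these data known. The 6 were Tfe3, Eras, Rhox5, Rhox6, Dusp9 and Trap1a. Dusp9, a phosphatase gene that dampens ERK signalling in embryonic stem cells, had 44, 94 and 122 reads and a LowK over MEF ratio of 2.16. In MidK over MEF, 4 of 15 were higher, which were Rhox5, Dusp9, Taf7l and Trap1a, and 3 lower, which were Xlr4a, Nono and Nxf2, with a median of 0.10, less than the shift of the median gene, so its sign turns with library totals. These were 26.7% and 20% of the list, against 9.45% and 9.82% of all genes. In MidK over LowK 1 of 14 was higher (8.73% of all genes) and 3 lower (11.9%), median -0.55. The members with most reads were Tex11, a meiosis gene, with 294, 427 and 999 reads and no call, Nxf2, an RNA export gene, with 25, 112 and 298 reads with a MidK over MEF ratio of 0.49 and a MidK over LowK ratio of 0.48, and Tktl1, with 42, 132 and 245 reads and no call.

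Of 46 housekeeping and metabolic genes, 4 were higher and 1 lower in LowK over MEF, with a median log2 ratio of 0.43. The higher share of 8.70% is near the 7.23% of all genes and the 9.70% of the gene-rich ones. The 4 were Wdr45, Ftsj1, Ssr4 and Fam50a, and the lower one was Fundc2, with 20, 26 and 184 reads and a ratio of 0.40 (0.25 to 0.60). Ftsj1, a transfer RNA methyltransferase gene, had 50, 163 and 163 reads and a ratio of 2.80. In MidK over MEF 3 of 46 were higher, Pqbp1, Usp11 and Vbp1, and 1 lower, Ndufa1, a respiratory complex I gene with 4, 49 and 96 reads and a ratio of 0.24, against 9.45% higher and 9.82% lower of all genes. In MidK over LowK 2 of 45 were higher and 7 lower, the lower ones being Ndufa1, Wdr45, Ssr4, Idh3g, Naa10, G6pdx and Dkc1. The lower share of 15.6% is close to the 15.8% of the gene-rich genes. Araf, Lamp2 and Bcap31 had the most reads of this list and no call.

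Of 25 genes of chromatin and transcription, 2 were higher in LowK over MEF, Tfe3 and Taf9b, and 0 lower, median 0.36. In MidK over MEF 3 were higher, Taf1, Taf9b and Taf7l, each a TFIID-related subunit gene, and 2 lower, Nono and Smc1a. In MidK over LowK 2 were higher, Taf1 and Nkrf, and 3 lower, Foxp3, Tfe3 and Smc1a. The shares were 8% higher in LowK over MEF (7.23% of all genes), 12% higher and 8% lower in MidK over MEF (9.45% and 9.82%), and 8% higher and 12% lower in MidK over LowK (8.73% and 11.9%), all near the background. Hdac8, a histone deacetylase gene, had the most reads, 208 in MidK, 416 in LowK and 1419 in MEF, a MidK over MEF ratio of 0.86, a LowK over MEF ratio of 0.82, and no call. Bcorl1 and Jade3, next by reads, had no call either.

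Of 14 neural genes, Plxnb3 and Pcsk1n were higher in LowK over MEF and 0 were lower. In MidK over LowK, 4 of 13 were lower, Cacna1f, Pcsk1n, Slc6a8 and Plxnb3, and 0 higher, with a median log2 ratio of -0.83. The lower share was 30.8%, against 11.9% of all genes and 15.8% of the gene-rich ones, and rests on few genes. The higher share in LowK over MEF was 14.3%, against 7.23%. Syn1 and Gprasp1 were among the members with the most reads and had no call. Of 16 blood and immune genes, 3 were higher in LowK over MEF, Pim2, Irak1 and Cxcr3, and 0 lower. In MidK over MEF Irak1 was the 1 higher gene. In MidK over LowK Il13ra1 was higher and Foxp3, Pim2, Ikbkg and Cxcr3 were lower. The higher share was 18.8% in LowK over MEF, against 7.23% of all genes, and 6.25% in MidK over MEF, against 9.45%. The lower share in MidK over LowK was 25%, against 11.9%. F8, Elf4 and Btk had the most reads and no call.

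Of 8 fibroblast and matrix genes, Plp2 and Flna were higher in LowK over MEF and 0 lower, and Plp2 was lower in MidK over LowK. Of all genes 7.23% were higher in LowK over MEF and 11.9% lower in MidK over LowK. Flna, which encodes the actin crosslinker filamin A, had 38, 145 and 198 reads and a LowK over MEF ratio of 2.05 (1.64 to 2.55). Cd99l2, Fhl1 and Nox1 had the most reads and no call. Of 30 genes of the Armcx, Bex and Tceal region, LowK over MEF gave 0 calls, against 7.23% higher and 6.3% lower of all genes. Bex4 was higher in MidK over MEF at 2.44, and Armcx6, Armcx3, Arxes2 and Tceal1 were lower at 0.26 to 0.33, which is 3.33% and 13.3% of the list, against 9.45% and 9.82% of all genes. Armcx6 was also lower in MidK over LowK, at 0.31. Nxf3, Tceal3 and Gprasp1 had the most reads there and no call.

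Of 3 genes known to escape X inactivation in these windows, the noncoding 4933407K13Rik was called, with 134 reads in MidK, 545 in LowK and 629 in MEF and a LowK over MEF ratio of 2.42 (2.16 to 2.72), not called with 1 site per 300 bp. Kdm5c, a demethylase gene for lysine 4 of histone H3, had 101, 125 and 399 reads, a MidK over MEF ratio of 1.49 and a LowK over MEF ratio of 0.88. Utp14a had 38, 114 and 224. The 1 call of 3 was in the higher direction, against 7.23% higher and 6.3% lower of all genes, and 3 genes are too few for a share. None of the 3 was called for MidK over MEF or for MidK over LowK.

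The allele measure took sites with 5 to 20 reads, of which each allele had 2 or more, 1 per 300 bp and without ties. It gave the percent with a variant majority, that is, more variant than B6 reads. In the gene-rich windows MidK stood at 27.2% of 559 sites (23.5% to 31.1%). LowK stood at 44.6% of 435 (39.9% to 49.4%), and MEF at 49.0% of 2197 (46.9% to 51.1%). B6 reads thus had the majority at most such sites in MidK, but not over all listed sites. Over all listed sites of the gene-rich windows, 82.1% of reads in MidK, 89.9% in LowK and 85.2% in MEF had the variant base. No B6 read was found at 84.6% of these sites in MidK, 89.1% in LowK and 80.9% in MEF, and a site without a variant read is in no list. By the allele measure, MidK stood in the other windows at 22.4% of 2498 sites (20.8% to 24.1%), LowK at 45.5% of 1392 (42.8% to 48.1%) and MEF at 48.3% of 9357 (47.3% to 49.3%). The intervals of the gene-rich and other windows overlapped in each library. MidK lay below MEF in 25 of 25 gene-rich windows, against 98.7% of all windows, with intervals apart in 1 (17.9%), Mamld1 to Cnga2, at 21.1% of 19 sites in MidK and 56.8% of 88 in MEF. It lay below LowK in 22 of 25, against 89.9%. LowK lay below MEF in 15 of 25, against 55.6%. The counts of windows below are near the background, and that with intervals apart is under it.

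Inside gene windows the variant majority was 29.3% in MidK (321 sites, 24.4% to 34.6%), 48.3% in LowK (288 sites, 42.4% to 54.2%) and 47.6% in MEF (1408 sites, 44.9% to 50.2%). Between genes it was 24.4% in MidK (238 sites, 19.1% to 30.3%), 37.4% in LowK (147 sites, 29.6% to 45.8%) and 51.6% in MEF (789 sites, 48.0% to 55.1%). LowK between genes lay below MEF with intervals apart, but it was 51.9% of 106 sites with a reliability of at least 20 and 57.6% of 33 sites that MEF also lists. The MidK values depended on the sites too. At sites that MEF also lists they were 40.6% of 64 inside (28.5% to 53.6%) and 44.4% of 27 between (25.5% to 64.7%). With a reliability of at least 20 they were 40.9% of 176 (33.6% to 48.6%) and 47.2% of 108 (37.5% to 57.1%). Only the interval of the 40.9% lay wholly under 50%, so a B6 majority in MidK was not clear at sites that MEF also lists.

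**Figure D5:**
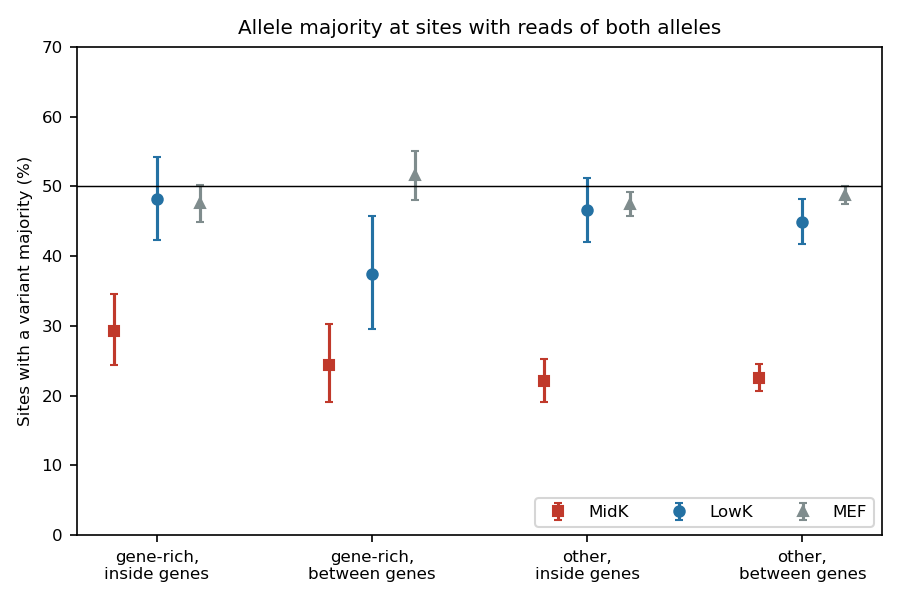
Percent of sites with reads of both alleles at which the variant base had the majority, in MidK, LowK and MEF, inside and between genes, in the gene-rich and in the other windows, with Clopper-Pearson 95% intervals. MidK lies between 22.1% and 29.3% in all 4 places, below MEF, and LowK between genes of the gene-rich windows is the lowest LowK value at 37.4%.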

How the data were processed

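LSD1 chromatin reads on mouse chromosome X were analysed in MidK, LowK and MEF, 1 library each, grouped by sample title. The submitters' processing notes name the aligner BWA and the build mm10, and the series' design text names bcftools mpileup for allele-wise variant calls. For versions, read filters and removal of duplicates, nothing was found (not given in the sources used here). Per the file headers, the deposited counts are depth, B6 reads and variant reads at a position. A deposited score, the reliability of a variant, served as an alternative; its header in the MidK file has another prefix than that file's other columns. Single-base entries were kept, which left out 5.56% of MidK, 6.13% of LowK and 6.97% of MEF entries. A site without any variant read is in no list, so such coverage is not counted. Genes came from a RefSeq table of GRCm38.p6, and promoters from RefSeq, whose bases equalled the B6 base at all 488 plus-strand and 452 minus-strand sites compared. Reads are B6 plus variant reads.

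Calls rest on size, without p-values, since no group has a replicate. Ratio intervals are exact conditional binomial intervals, shares have Clopper-Pearson and counts Poisson intervals. Intervals cover counting error only. The calling steps were tested on simulated data, drawn independently from the MEF counts with folds larger than the limits of a call. These draws did not hold reads counted at several sites, so they cannot show how often calls in the real libraries are false. Genes were named by rule: per comparison the 5 called genes with the highest and the 5 with the lowest ratio, called list members and the 3 members of each list with most reads; Siah1b, Ube2a and Rab9b, and the values at the starts of Smc1a and G6pdx, were picked after their values were seen. Some genes that the rule names are not reported here. Windows, gene lists and measures were chosen with earlier results of these data known. Python 3.11.15, numpy 2.4.6, pandas 2.3.3, scipy 1.17.1 and matplotlib 3.10.9 were used. Scalings, site thinning, read limits, reliability and window definitions were varied.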

Additional observations from a re-analysis of the deposited data

How the results depend on the processing

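No paired analysis was possible because each group has 1 library. Calls under the alternatives, here and above, were counted among the gene-rich windows and their genes only. The share over all windows or genes of the chromosome was not determined at these settings. A larger or smaller count there is therefore not a result about the gene-rich windows. Directions of the read share held in all alternatives but one: at sites listed in all 3 libraries MidK over MEF was 1.02, with LowK over MEF at 1.01 and MidK over LowK at 0.98. There, 1 window of 7 was called, higher, for LowK over MEF, and 0 for MidK over MEF and MidK over LowK. Genes called were 2, 2 and 1 of 6, 5 and 4 tested for LowK over MEF, MidK over MEF and MidK over LowK, and those over MEF were all lower. The cause was not tested, but only 766 sites remained, and the median window came from 17, 17 and 10 windows that were in part gene-rich. With library totals LowK over MEF was 1.16 and MidK over LowK 0.779, with 0 and 3 windows called and 174 genes for MidK over LowK.

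Thinned to 1 site in 300 bp, LowK over MEF was 1.16 and MidK over LowK 0.753. Windows called were 0, 0 and 5 for LowK over MEF, MidK over MEF and MidK over LowK, and genes 25, 29 and 20. Inside-to-between density was 0.862 in MidK, 1.15 in LowK and 1.13 in MEF. At starts, LowK over MEF was 1.81 and MidK over LowK 0.464 over all; LowK over MEF 2.32 and MidK over MEF 1.27 at CpG-rich ones; LowK over MEF 1.58 and MidK over LowK 0.412 at CpG-poor ones. With each site counted once, LowK over MEF was 1.16, MidK over MEF 0.953 and MidK over LowK 0.803. Windows called were then 0, 0 and 1, genes 0, 0 and 1, and densities 0.919 in MidK, 1.10 in LowK and 1.12 in MEF.

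With a reliability of at least 20, the read share was 1.33, 0.945 and 0.686 in the 3 comparisons. Windows called were 7 higher for LowK over MEF, 0 higher and 1 lower for MidK over MEF, where the call turned, and 14 lower for MidK over LowK, and genes 137 for LowK over MEF and 160 for MidK over MEF. Densities were 0.853 in MidK, 1.16 in LowK and 1.07 in MEF. Variant majorities inside and between genes were 40.9% and 47.2% in MidK, 60.7% and 51.9% in LowK, and 59.0% and 62.3% in MEF. LowK between genes turned over 50% there and at sites that MEF also lists, at 57.6%, where MidK gave 40.6% and 44.4%. With at least 8 reads MidK gave 11.5% and 15.2%, and MEF 42.3% and 44.3%; the order of MidK below MEF held.

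With at most 20 reads per site MidK over MEF was 0.877, MidK over LowK 0.719, MidK density 0.820, and 0 windows were called for MidK over MEF. Without Dkc1 to Pls3, a choice made after seeing the data, they were 0.865, 0.714 and 0.832, and MEF density 1.07. With over 15 genes LowK over MEF was 1.28 and MidK over LowK 0.685; with over 8, MidK over MEF was 0.882 and MidK over LowK 0.726. With a lower limit for windows, 8 were called higher for LowK over MEF, 1 higher and 8 lower for MidK over MEF, 9 in all, and 19 lower for MidK over LowK, and at 2-fold 0, 0 and 0. At 1.5-fold 159 and 160 genes were called for LowK over MEF and MidK over MEF. Gene bodies without flanks gave densities of 0.817 in MidK and 1.05 in LowK, and protein-coding genes only 1.02 in LowK and 1.04 in MEF. Low depth, at 1.65 to 2.23 reads per site, and the few shared sites limit all of these values.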
